A study of Homo sapiens with 6 samples.

Results

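The JAK kinases *JAK1*, *JAK2* and *TYK2* and the STAT factors *STAT2*, *STAT3*, *STAT4*, *STAT5A*, *STAT5B* and *STAT6* were followed by gene symbol in RNA sequencing of the established cell line MDA-MB-453, which was derived from a HER2+ breast cancer. These 9 genes were chosen by family, with earlier results of these data known, out of 22807 genes in the table. Other genes of both families were not analysed here. Of the 6 libraries, 3 came from cells transfected with scrambled control siRNA and 3 from cells transfected with siRNA against *DUSP6*, a phosphatase that removes phosphate from ERK kinases. All 6 came from wild-type cells kept in serum-containing medium. The study states 3 different siRNAs per group, and the labels do not say which of them each library received. Hence an effect of 1 siRNA sequence and the spread between cultures cannot be told apart. The labels do not say that the libraries came from separate cultures. The methods speak of independent experiments for the study's data in general without naming these libraries, so p-values measure the spread between these libraries, which may be partly technical. The time between transfection and harvest is not given in the sources used here.

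In this pathway a cytokine or interferon brings its receptor chains together, and the JAK kinases bound to their tails phosphorylate each other, the receptor and then the STATs. Phosphorylated STATs pair, enter the nucleus and bind DNA. STAT2 acts with the DNA-binding partner IRF9 in the response to type I interferon, STAT3 follows IL-6 family cytokines, STAT4 IL-12, STAT5A and STAT5B prolactin and growth hormone, and STAT6 IL-4 and IL-13. In the mammary epithelium, STAT5A and STAT6 are known for roles in alveolar development and STAT3 for the involution after lactation. All values below are RNA levels, and none measures phosphorylation.

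Reads assigned to the genes of the table, recovered from the deposited values, numbered 56542154 to 85729785 with scrambled siRNA. With *DUSP6* siRNA they numbered 45546981 to 75642792, and reads not assigned to these genes are not known here. The deposited normalized value is a gene's reads relative to a library size that was scaled between libraries, and 1 read was worth 0.0121 to 0.0202. *DUSP6* itself had values of 209, 110 and 114 with scrambled siRNA and of 39.4, 24.5 and 35.2 with *DUSP6* siRNA (log2 fold change -2.05, standard error 0.25, limma adjusted p = 3.09e-04), and 28.6% of its exon sequence is shared with a gene on the opposite strand. Of the line's own markers, *ERBB2*, which encodes HER2, had a mean of 984 with scrambled siRNA and of 495 with *DUSP6* siRNA, and *ESR1* stayed at or under 0.110. Of 10 leukocyte markers, 5 were in the table, and their summed value was 4.77 to 5.80 with scrambled and 4.01 to 5.87 with *DUSP6* siRNA, nearly all of it *CD68*, with *PTPRC* at or under 0.0809. Of the exon sequence of *CD68*, 85.6% is shared with neighboring genes, so its value is uncertain. Of 6 fibroblast markers, 5 were in the table, with a summed value of 80.9 to 105 and of 162 to 192. That sum was nearly all *COL1A1*, and its part in the results below was not tested.

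The start regions of 3 members are shown because they are the riser and the faller with the largest fold changes among the tested STATs and the one member with a match to a STAT-type motif. The sequences come from RefSeq on GRCh38.p14, on the strand of the gene and 5′ to 3′, and hold the bases up to 250 upstream of an annotated start that lie outside every annotated exon. Capitals mark a motif match.
STAT2, chr12:56360204-56360357, minus strand: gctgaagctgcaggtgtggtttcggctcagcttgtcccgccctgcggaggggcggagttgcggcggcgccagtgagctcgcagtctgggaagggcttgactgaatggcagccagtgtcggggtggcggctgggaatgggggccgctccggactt
STAT3, chr17:42388541-42388692, minus strand: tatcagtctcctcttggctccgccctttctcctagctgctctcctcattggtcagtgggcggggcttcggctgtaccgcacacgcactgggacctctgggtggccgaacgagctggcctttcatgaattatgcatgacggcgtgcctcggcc
STAT5A, chr17:42287189-42287438, plus strand: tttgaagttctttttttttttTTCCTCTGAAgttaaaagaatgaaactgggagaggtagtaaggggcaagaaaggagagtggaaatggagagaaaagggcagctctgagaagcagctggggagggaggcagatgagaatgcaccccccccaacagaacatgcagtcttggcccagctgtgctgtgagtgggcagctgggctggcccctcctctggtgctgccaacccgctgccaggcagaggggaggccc

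Promoter windows of 300 bases were searched on both strands for an interferon-type element (TTTC, any 2 bases, TTTC), for the STAT dimer element (TTC, any 3 bases, GAA) and for its form with 4 bases between the arms, to which STAT6 is known to bind. The 9 members had 17 such windows. The interferon-type element was found in 0 of the 17 windows, against 3.57% of all 35116 RefSeq windows. The STAT dimer element was also found in 0 of 17, against 7.66% of all windows. The form with 4 bases between the arms was found in 1 of 17, the *STAT5A* window above, which lies inside the span of *STAT5B* and where its first base lay 229 bases upstream of the start (chr17:42287210-42287219), against 6.44% of all windows. A match is a run of letters and not a measured binding site, and a window without one says only that these letters are absent from it.

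Of the 9 members, 7 reached a mean value of at least 1 and were tested with limma on log2(value + 1), and *STAT4* and *STAT5A* fell under that filter. All 3 kinases rose with *DUSP6* siRNA, as did *STAT2* and *STAT5B*, while *STAT3* and *STAT6* fell. The 5 members called higher stand beside 2540 of all 12862 tested genes (19.7%), and the 2 called lower beside 3179 (24.7%), at a Benjamini-Hochberg adjusted p under 0.05 over all tested genes. In 6 members, *STAT5A* included, every *DUSP6* siRNA library was above every scrambled library, and in 2 members every one was below. Among all tested genes, that held for 26.7% upward and 31.1% downward, and among the 9945 genes under the filter for 15.1% and 7.32%. A call in either direction was thus common in this comparison, and the sizes of the changes are given gene by gene below. For each of those 8 members the two-sided exact permutation test gave p = 0.1, which is as low as 3 libraries against 3 can go.

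**Figure D1:**
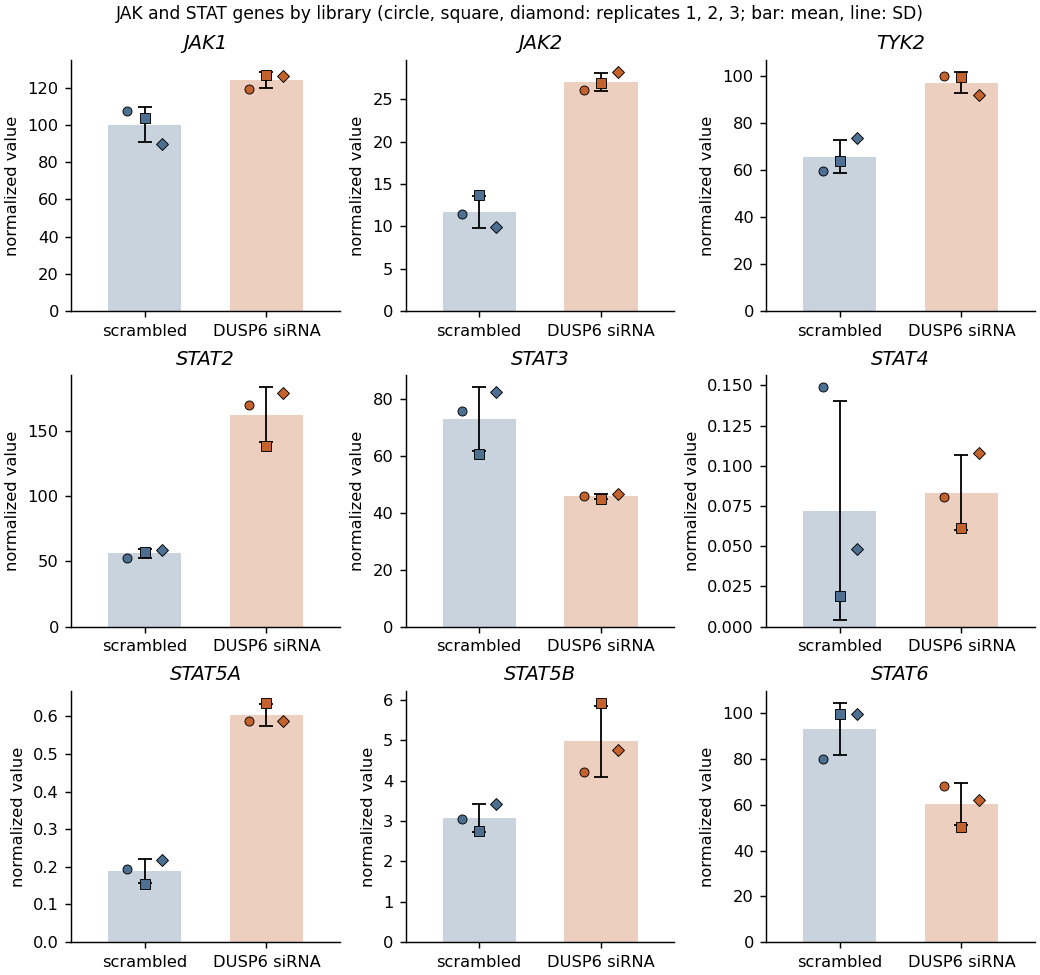
Normalized value (vertical axis, linear from 0, a separate scale for each gene) of the 9 JAK and STAT genes in each library with scrambled or *DUSP6* siRNA. Symbols are replicates 1 to 3, bars the mean and lines the SD of 3 libraries; the groups overlap in *STAT4* only, and the clearest separations are in *JAK2*, *STAT2* and *STAT5A*.

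Among the kinases, *JAK2* changed most. It encodes the kinase of the prolactin, growth hormone and erythropoietin receptors, which also serves the interferon gamma receptor (Entrez gene 3717, chromosome 9, 4984390 to 5129948 on GRCh38, plus strand). Its normalized value was 11.5, 13.8 and 9.98 with scrambled siRNA (replicates 1 to 3, an order kept from here on) and 26.1, 27.0 and 28.2 with *DUSP6* siRNA. The lowest *DUSP6* siRNA library was 1.90 times the highest scrambled library. The mean rose from 11.7 ± 1.90 to 27.1 ± 1.06 (SD, n = 3 each), 2.31 times, with a log2 fold change of 1.15 (standard error 0.13, 95% interval 0.87 to 1.43, limma adjusted p = 1.68e-04). By absolute fold change it ranked 626 of the 12862 tested genes.

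*TYK2* encodes the kinase bound to IFNAR1 and to receptor chains of the IL-12 and IL-10 families (Entrez gene 7297, chromosome 19, 10350533 to 10380572, minus strand). Its value was 59.8, 63.7 and 73.6 with scrambled siRNA and 99.96, 99.6 and 92.0 with *DUSP6* siRNA. The groups stood apart by a factor of 1.25 at their nearest libraries. The mean rose 1.48 times, from 65.7 ± 7.11 to 97.2 ± 4.49 (SD, n = 3 each), and the log2 fold change was 0.56 (standard error 0.10, limma adjusted p = 0.00221).

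*JAK1* encodes the kinase shared by the interferon receptors and the gp130 family (Entrez gene 3716, chromosome 1, 64833229 to 65067746, minus strand), and 4.99% of its exon sequence is shared with neighboring genes. Its value was 107, 104 and 89.7 with scrambled siRNA and 119, 127 and 126 with *DUSP6* siRNA. The nearest libraries of the groups differed by a factor of 1.11. The mean rose 1.24 times, from 100.2 ± 9.25 to 124 ± 4.17 (SD, n = 3 each), with a log2 fold change of 0.31 (standard error 0.09, 95% interval 0.10 to 0.53, limma adjusted p = 0.0254). This call rested on having all 3 *DUSP6* siRNA libraries, since leaving out replicate 1, 2 or 3 of them gave limma adjusted p-values of 0.0608, 0.0883 and 0.1005, in log2 fold changes of 0.24 to 0.36 over all 6 leave-one-out fits.

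Within each library, the ratio of *JAK2* to *JAK1* values was 0.107, 0.133 and 0.111 with scrambled siRNA and 0.219, 0.212 and 0.223 with *DUSP6* siRNA. The ratio does not depend on the scaling between libraries, and its groups did not overlap (log2 difference 0.90, two-sided exact permutation p = 0.1, the smallest possible). The ratio of *JAK2* to *TYK2* was higher with *DUSP6* siRNA by 0.65 in log2, also with no overlap, whereas the ratio of *TYK2* to *JAK1* overlapped between the groups (0.26 in log2, exact permutation p = 0.3). Divided by exon length, the 3 kinases together summed to 16.8 ± 0.248 with scrambled siRNA and to 24.3 ± 0.414 with *DUSP6* siRNA (SD, n = 3 each, value per kb), and the share of *JAK2* in that sum was 8.83% ± 1.32 and 14.1% ± 0.669.

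**Figure D2:**
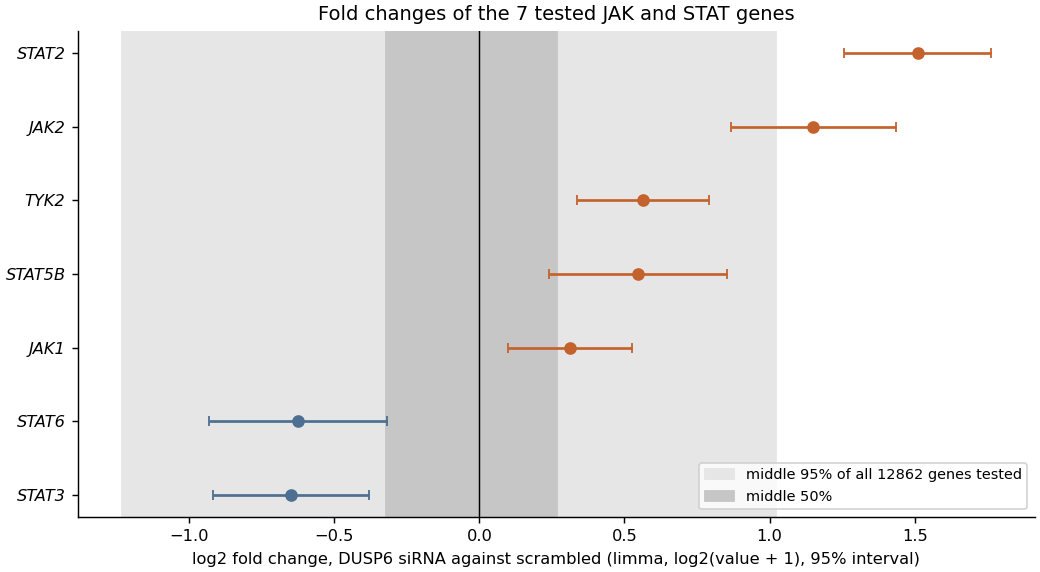
Log2 fold change of *DUSP6* siRNA against scrambled siRNA (horizontal axis, limma on log2(value + 1)) of the 7 tested members, with 95% intervals. Grey bands hold the middle 50% (-0.32 to 0.27) and the middle 95% (-1.23 to 1.02) of the fold changes of all 12862 genes; *STAT2* at 1.51 and *JAK2* at 1.15 lie above the wider band.

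*STAT2* had the largest change of the tested members. It encodes the STAT that joins IRF9 in the interferon-stimulated gene factor and, unlike its relatives, binds DNA mainly through its partners (Entrez gene 6773, chromosome 12, 56341597 to 56360107, minus strand; its upstream sequence is given above). Its value was 52.4, 57.0 and 59.0 with scrambled siRNA and 170, 139 and 179 with *DUSP6* siRNA. Replicate 2 was the lowest *DUSP6* siRNA library and was still 2.35 times the highest scrambled library. The mean rose from 56.1 ± 3.40 to 162 ± 21.0 (SD, n = 3 each), 2.89 times, a log2 fold change of 1.51 (standard error 0.11, 95% interval 1.26 to 1.76, limma adjusted p = 2.18e-05). By absolute fold change it ranked 294 of the 12862 tested genes.

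*STAT3*, whose product carries signals of the gp130 receptors, fell (Entrez gene 6774, chromosome 17, 42313324 to 42388442, minus strand). Its value was 76.0, 60.7 and 82.5 with scrambled siRNA and 46.0, 44.9 and 46.7 with *DUSP6* siRNA. The *DUSP6* siRNA libraries lay close together, and the spread came from the scrambled libraries. The mean went from 73.1 ± 11.2 to 45.9 ± 0.868 (SD, n = 3 each), 0.628 times, with a log2 fold change of -0.65 (standard error 0.12, 95% interval -0.92 to -0.38, limma adjusted p = 0.00242).

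*STAT6*, whose product acts after IL-4 and IL-13, fell by a similar amount (Entrez gene 6778, chromosome 12, 57095408 to 57111362, minus strand). Its value was 80.2, 99.9 and 99.8 with scrambled siRNA and 68.4, 50.4 and 62.3 with *DUSP6* siRNA. Replicate 1 of each group came nearest to the other group, with the highest *DUSP6* siRNA value at 0.853 times the lowest scrambled value. The mean went from 93.3 ± 11.3 to 60.4 ± 9.19 (SD, n = 3 each), 0.647 times, a log2 fold change of -0.62 (standard error 0.14, 95% interval -0.93 to -0.32, limma adjusted p = 0.00568). The ratio of *STAT3* to *STAT6* overlapped between the groups, with a log2 difference of -0.03 (exact permutation p = 1).

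*STAT5B* and *STAT5A* encode near-identical proteins of the prolactin and growth hormone response and lie back to back on chromosome 17, *STAT5B* from 42199177 to 42288370 on the minus strand and *STAT5A* from 42287439 to 42311943 on the plus strand. Their RefSeq spans share 932 bases. By GENCODE models, 6.50% of the exon sequence of *STAT5A* and 3.43% of that of *STAT5B* is shared between them. With the settings stated for read assignment, reads of such a stretch or of near-identical sequence could be split or lost, so the separate values are uncertain. *STAT5B* (Entrez gene 6777) had values of 3.05, 2.74 and 3.42 with scrambled siRNA and of 4.23, 5.93 and 4.76 with *DUSP6* siRNA. The lowest *DUSP6* siRNA library was 1.23 times the highest scrambled library. The mean rose 1.62 times, from 3.07 ± 0.342 to 4.97 ± 0.872 (SD, n = 3 each), with a log2 fold change of 0.55 (standard error 0.14, 95% interval 0.24 to 0.85, limma adjusted p = 0.0107).

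*STAT5A* (Entrez gene 6776), known for its part in the milk-producing gland, was under the filter. Its recovered reads were 13, 8 and 18 with scrambled siRNA and 29, 52 and 38 with *DUSP6* siRNA, which correspond to values of 0.193, 0.153 and 0.217 against 0.586, 0.636 and 0.587. All *DUSP6* siRNA libraries lay above all scrambled libraries, at 3.21 times in the means. Over the whole table without a filter, it was called higher both by limma on log2(value + 1) (0.43, adjusted p = 3.98e-04) and by the quasi-likelihood test of edgeR on recovered reads (log2 fold change 1.65, adjusted p = 5.14e-04). Without a filter, 13.1% of all genes were called higher by limma and 14.2% by edgeR. The ratio of *STAT5A* to *STAT5B* reads was 0.0634, 0.0559 and 0.0634 with scrambled siRNA and 0.139, 0.107 and 0.123 with *DUSP6* siRNA, without overlap (exact permutation p = 0.1, the smallest possible).

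*STAT4*, which encodes the STAT of the IL-12 response in lymphocytes, was at the edge of detection (Entrez gene 6775, chromosome 2, 191029576 to 191151596, minus strand), and 5.67% of its exon sequence is shared with neighboring genes. It had 10, 1 and 4 reads with scrambled siRNA and 4, 5 and 7 with *DUSP6* siRNA. The groups overlapped, and no difference was detectable at this depth (edgeR without a filter, log2 fold change 0.15, adjusted p = 0.895).

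The members' levels can be set against each other only per length, and the values per kb that follow are normalized values divided by the summed exon length of each gene in GENCODE models. With scrambled siRNA the order was *STAT6* (12.8), *TYK2* (7.71), *JAK1* (7.60), *STAT3* (6.52), *STAT2* (6.03), *JAK2* (1.49), *STAT5B* (0.254), *STAT5A* (0.0294) and *STAT4* (0.0156). The ranges of *TYK2*, *JAK1*, *STAT3* and *STAT2* overlapped from each to the next, as did those of *STAT5A* and *STAT4*, so those neighbors did not differ beyond their spread. With *DUSP6* siRNA the order was *STAT2* (17.5), *TYK2* (11.4), *JAK1* (9.43), *STAT6* (8.27), *STAT3* (4.09), *JAK2* (3.43), *STAT5B* (0.411), *STAT5A* (0.0945) and *STAT4* (0.0181). Here only *JAK1* and *STAT6* overlapped among neighbors. *STAT2* went from the fifth to the first place, while *JAK2* kept the sixth. With the length of 1 representative transcript per gene instead, *JAK1* and *TYK2* changed places in both groups.

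**Figure D3:**
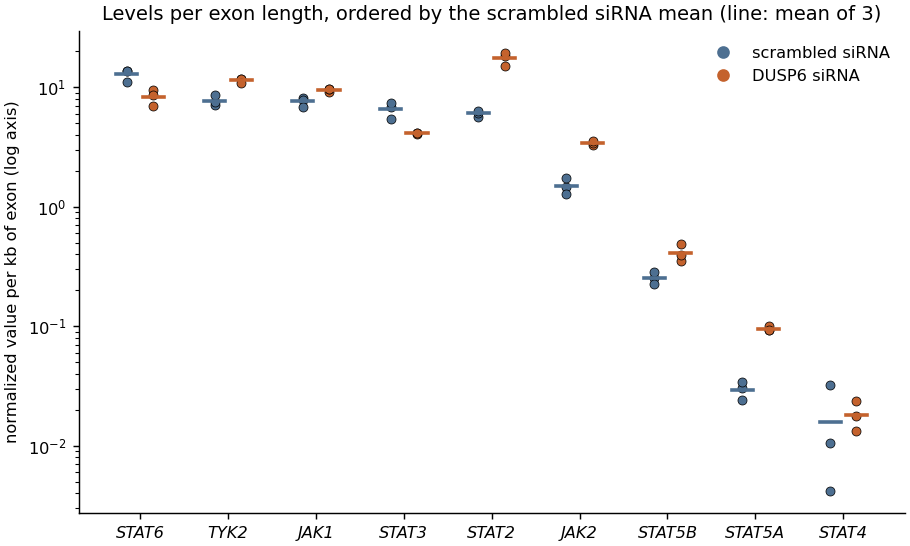
Normalized value per kb of exon (vertical log axis) of the 9 members, ordered by the scrambled siRNA mean. Points are libraries and lines the means of 3; *STAT2* has the highest mean with *DUSP6* siRNA (17.5) and the fifth highest with scrambled siRNA (6.03).

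The make-up of the 6 STAT members' transcripts differed between the groups in every library, and other STAT genes were not in the sum. The shares are parts of the same sum, so a larger share of *STAT2* leaves smaller shares for the rest. Of the summed per-length level of the 6 STATs, *STAT2* made up 23.7%, 24.0% and 22.9% with scrambled siRNA and 56.7%, 56.4% and 59.3% with *DUSP6* siRNA, a difference of 33.9 percentage points in the means (two-sided exact permutation p = 0.1, the smallest possible). *STAT6* went from 49.8% ± 3.71 to 27.2% ± 1.70 and *STAT3* from 25.5% ± 3.78 to 13.6% ± 1.37 (SD, n = 3 each). *STAT5A*, *STAT5B* and *STAT4* together stayed a small part, with *STAT5B* the largest of them at means of 0.9899% and 1.38%. The difference in the share of *STAT2* was 34.2 points with representative transcript lengths and also without any division by length. The sum itself overlapped between the groups, at 25.6 ± 2.00 and 30.3 ± 3.39 per kb (SD, n = 3 each, exact permutation p = 0.2). Within each library, the ratio of *STAT2* to *STAT3* values was 0.689, 0.938 and 0.716 with scrambled siRNA and 3.69, 3.09 and 3.83 with *DUSP6* siRNA, without overlap between the groups (log2 difference 2.19, exact permutation p = 0.1, the smallest possible). Per kb, *STAT2* was below *STAT3* in scrambled replicates 1 and 3, above it in replicate 2 (6.12 against 5.42) and above it in every *DUSP6* siRNA library.

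**Figure D4:**
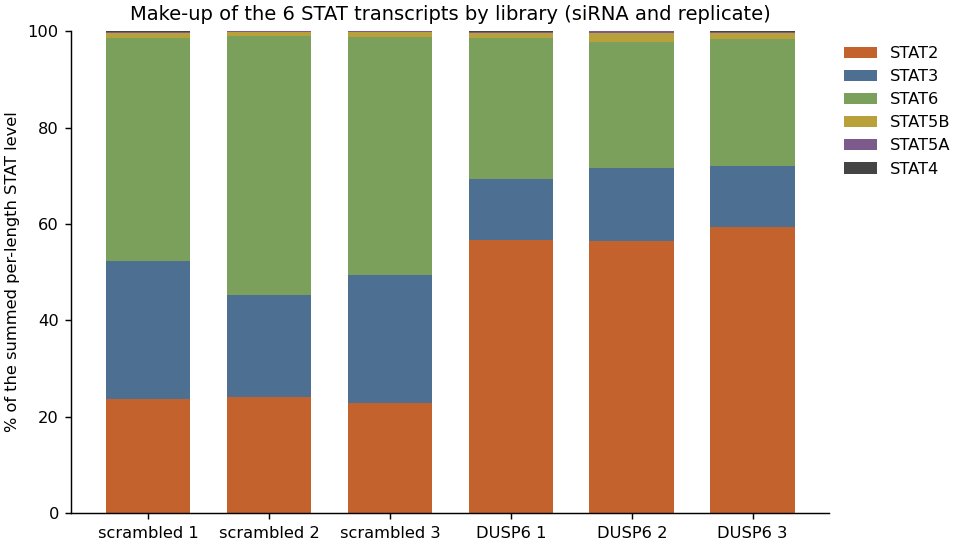
Percent of the summed per-length level of the 6 STAT members' transcripts (vertical axis, 0 to 100) in each library, without other STAT genes. Each bar is 1 library and colors are genes; the share of *STAT2* lies between 22.9% and 24.0% with scrambled siRNA and between 56.4% and 59.3% with *DUSP6* siRNA.

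The genes around the members were taken by role from lists written with earlier results of these data known. For each list the median log2 fold change is given beside that of all tested genes (-0.01). The counts of each list stand beside 19.7% called higher and 24.7% called lower among all 12862 tested genes. Of 31 receptor chains that bind JAKs, 17 were tested, 6 rose, 3 fell and 8 were not called, with a median of -0.05. *IL6ST*, which encodes the shared chain gp130, had values of 5.50, 4.52 and 4.74 with scrambled siRNA and of 12.8, 18.0 and 13.7 with *DUSP6* siRNA (log2 fold change 1.41, limma adjusted p = 1.23e-04). *LEPR*, the leptin receptor, rose by 1.34 in log2 (limma adjusted p = 7.14e-04). *IL4R*, the receptor chain through which IL-4 reaches STAT6, fell from 22.4, 23.9 and 22.3 to 9.81, 8.51 and 8.68 (-1.26, limma adjusted p = 3.98e-05). The receptor chains moved in both directions, as the tested genes did as a whole. *IL6ST* and *IL4R* share 6.61% and 5.59% of their exon sequence with a gene on the opposite strand.

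Of 19 inhibitors of the pathway, all tested, 5 rose, 4 fell and 10 were not called, with a median of 0.05. These counts are near the shares over all tested genes (19.7% higher and 24.7% lower). *CISH*, a suppressor of cytokine signalling that STAT5 is known to switch on, fell from 84.2, 87.2 and 74.3 to 17.1, 12.9 and 16.7 (-2.33, limma adjusted p = 4.31e-06). *SOCS2*, of the same family, fell by 0.99 in log2 (limma adjusted p = 0.00196). *USP18*, which removes ISG15 from proteins and blocks JAK1 at the type I interferon receptor, rose from 53.7, 39.1 and 49.999 to 127, 99.4 and 129 (1.30, limma adjusted p = 1.80e-04).

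Of 9 partners and coactivators, 4 rose and 5 fell, with a median of -0.42, beside 19.7% and 24.7% of all tested genes. *IRF9*, the partner of STAT2, had values of 11.99, 13.3 and 26.5 with scrambled siRNA and of 220, 222 and 225 with *DUSP6* siRNA (3.70, limma adjusted p = 1.07e-05). *IRF1*, an interferon-regulated transcription factor, rose by 2.24 in log2 (limma adjusted p = 5.41e-06), and *NMI*, which binds STATs, by 1.43 (limma adjusted p = 0.00129). In *IRF9* the third scrambled library was the highest of its group by a wide margin, and the same library was the highest of its group in 11 of 12 targets of the STAT2-IRF9 complex and in *STAT2*. Without that library the log2 fold change was 1.55 for *STAT2* and 4.04 for *IRF9*.

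Target lists were read next, with the caution that a gene is often a target of several STATs. The lists were also written with earlier results of these data known, so their counts are descriptions and no test of STAT activity. Over all tested genes, 19.7% were called higher and 24.7% lower. All 12 targets of the STAT2-IRF9 complex rose, with a median log2 fold change of 6.08, among them *IFI6*, *IFIT1* and *OAS2* at 7.56, 7.19 and 6.34. Without the third scrambled library these 3 had fold changes of 8.25, 7.65 and 6.77 in log2. *OAS2*, *IFI44L*, *CMPK2* and *MX1* had scrambled means of 0.919, 0.317, 0.374 and 0.571, under the filter of 1. They were tested only through their *DUSP6* siRNA values, so their rise was partly set by the filter. The same holds for *LIFR* (0.993) among the receptor chains and *SOCS1* (0.921) among the inhibitors. Of 15 tested STAT3 targets, 2 rose, 10 fell and 3 were not called, with a median of -0.50. *BCL3*, *BCL2L1* and *SERPINA3* had the largest falls, at -1.10, -1.03 and -0.91 (limma adjusted p = 5.15e-04, 6.46e-05 and 0.00450). *SERPINA3* and *PIM1* had *DUSP6* siRNA means of 0.628 and 0.762 and passed the filter only through their scrambled values. Of 8 tested STAT5 targets, 2 rose, 5 fell and 1 was not called, with a median of -0.51. *CISH*, *BCL2L1* and *SOCS2* led these falls, while *STAT5A* and *STAT5B* themselves had risen. Of 8 STAT6 targets, 5 were in the table, and 3 were tested and fell, *IL4R*, *ALOX15* and *GATA3*, with a median of -1.14. *GATA3*, a luminal transcription factor, had values of 885, 887 and 619 with scrambled siRNA and of 510, 491 and 452 with *DUSP6* siRNA (limma adjusted p = 0.00461). The lists share *CISH*, *SOCS2*, *SOCS3*, *BCL2L1*, *CCND1*, *PIM1* and *IL4R*, each counted in both of its lists, and *BCL2L1*, *CCND1* and *PIM1* are 3 of the 5 STAT5 targets that fell and also 3 of the 10 STAT3 targets that fell. Of the genes named from the lists, *IRF9*, *IRF1*, *IFI6*, *BCL2L1* and *SERPINA3* share 27.2%, 22.9%, 23.1%, 41.3% and 31.7% of their exon sequence with a neighbor by GENCODE models, so their values are uncertain.

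**Figure D5:**
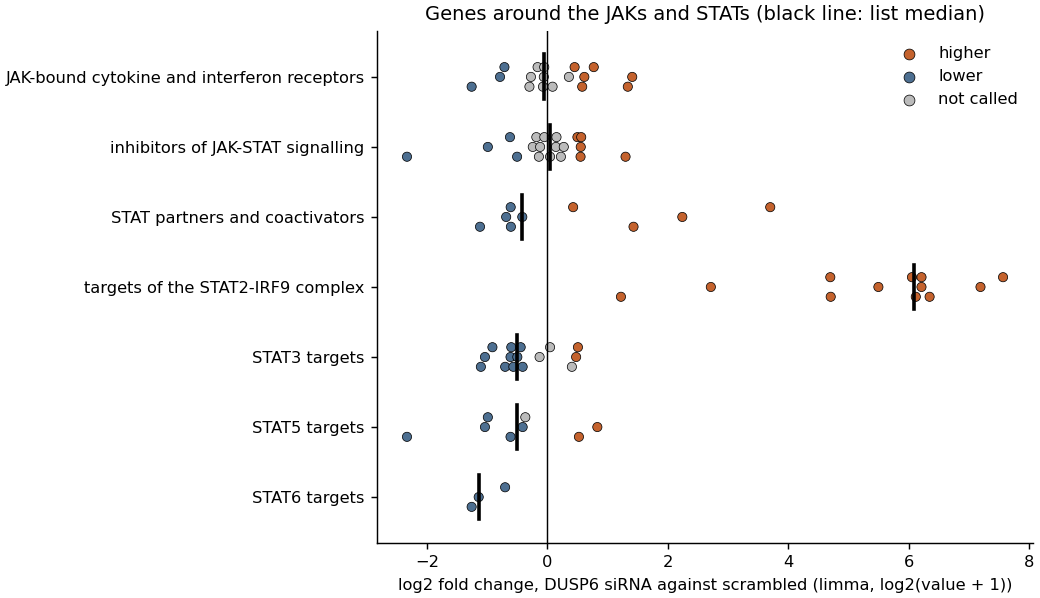
Log2 fold change of *DUSP6* siRNA against scrambled siRNA (horizontal axis, limma on log2(value + 1)) of the tested genes of 7 lists around the JAKs and STATs. Each point is a gene, colored by its call, and black lines are list medians. The lists were written with earlier results of these data known. The 12 targets of the STAT2-IRF9 complex lie to the right (median 6.08), of which *OAS2*, *IFI44L*, *CMPK2* and *MX1* passed the filter only through their *DUSP6* siRNA values. The 3 tested STAT6 targets lie to the left (median -1.14), while receptors and inhibitors lie on both sides of 0.

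The genes whose pattern was most like that of the leading member of each family were ranked by Pearson's r of log2(value + 1) over the 6 libraries. The 6 libraries fall into the 2 siRNA groups, so any gene that differs between them with a small spread scores high, and r is given as a measure of likeness only. For *STAT2* the highest were *DDX60L* (0.999), *ZNF438* (0.999) and *IFNL1* (0.998), and 83 genes reached 0.99. *IFNL1* has close copies in its family and its value is uncertain. For *JAK2* they were *ZNF622* (0.999), *ZSWIM6* (0.998) and *GPRC5B* (0.998), and 27 genes reached 0.99. Among these, *DDX60L* and *IFNL1* rose by 4.68 and 3.66 in log2 and *GPRC5B* by 2.33, each more than the member it resembled. *ZNF438*, *ZNF622* and *ZSWIM6* rose by 0.48, 0.49 and 0.75, each less than the member it resembled.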

How the data were processed

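RNA of MDA-MB-453 cells was sequenced from a stranded mRNA kit. The authors aligned reads to hg38 and assigned them to RefSeq gene models with Rsubread, and the submitters' processing notes name edgeR. The deposited values are a normalized signal per gene and library. All of them were whole multiples of 1 step per library, from which the reads were recovered, and the steps matched edgeR's TMM scaling (largest relative difference 2.57e-08). From there, genes whose mean value reached 1 (12862 of 22807) were tested with limma 3.58.1 (trend) in R 4.3.3 on log2(value + 1), which makes fold changes of low genes smaller, with Benjamini-Hochberg adjustment over all of them. Single values were compared with exact permutation tests. edgeR 4.0.16 and DESeq2 1.42.0 on the recovered reads were alternatives. The main limma fit, edgeR and DESeq2 were tested on simulated data, and the other settings were not. Counting error weighs most in *STAT4* and *STAT5A*, which have the fewest reads, and it was not compared with the spread between libraries gene by gene. Replicate numbers did not pair the libraries: deviations of same-numbered libraries correlated at 0.005, 0.087 and -0.076. Averaged over genes, library pairs within a group differed by more than sampling noise. Chi-square per gene was 70.4 to 212 between scrambled libraries and 6.87 to 26.8 between *DUSP6* siRNA libraries. The pairs with scrambled replicate 3 had the highest values, 212 and 173. The limma fit pooled the variance of both groups. Named genes were all members, *DUSP6*, up to 3 called genes of each list with the largest fold changes, and the 3 genes most like the leading member of each family; markers and depth facts were added. The members and lists were chosen with earlier results of these data known. Lengths came from GENCODE v44, not the models the authors counted on. Other samples of the study were not analysed here.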

Additional observations from a re-analysis of the deposited data

How the results depend on the processing

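All 7 tested members kept their direction in every alternative that tested them, and the calls held in each of those on all 6 libraries (no filter, a minimum mean value of 10, a pseudocount of 0.1, median of ratios scaling, quantile normalization, no trend, the replicate block, edgeR and DESeq2). A mean value of at least 10 left *STAT5B* out, so that 4 members were higher, and no filter added *STAT5A*, so that 6 were. *JAK1* had 0.31 to 0.44 over these, and lost its call without any 1 *DUSP6* siRNA replicate. *STAT2* had 1.51 to 1.63 and *JAK2* 1.14 to 1.24. With the replicate block 5 members were higher and 2 lower, of 2495 and 3096 genes in all, and no call on a member changed. Over all genes, 1639 were higher at a mean value of at least 10, where fewer genes are tested, and 1574 to 3183 when 1 library was left out. edgeR without a filter was chosen after seeing the data. Depth limits *STAT4* and *STAT5A*, whose reads number 1 to 52 per library.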

Other observations

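Of 31 receptor chains, 14 were under the filter on low values and have no test. In 5 of them every *DUSP6* siRNA library was above every scrambled library, and in 1 every one was below, beside 15.1% and 7.32% of all 9945 genes under the filter. The genes named here were chosen after their values were seen. *IL15RA*, the chain that presents IL-15, had values of 0.134, 0.192 and 0.181 with scrambled siRNA and of 0.687, 0.880 and 1.04 with *DUSP6* siRNA. *CSF3R*, the receptor of granulocyte colony-stimulating factor, had values of 2.26, 1.02 and 1.82 with scrambled siRNA and of 0.243, 0.196 and 0.0927 with *DUSP6* siRNA.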
